A study of Mus musculus with 30 samples.

Results

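Cytotoxic and intraepithelial lymphocyte genes were followed in the colon epithelial scrape of mice, as the 9 genes *Klrd1*, *Klrk1*, *Gzma*, *Gzmb*, *Prf1*, *Nkg7*, *Cd8a*, *Cd160* and *Itgae*. They were taken by gene name from the 46078 genes of the counts table, in which all 9 were present, and they had been picked for their levels across vehicle and both AOM/DSS time points in these same libraries. Their values across treatments are therefore given as a description, and tests are given for the comparisons of the sexes. The study sequenced the RNA of 30 C57BL/6J wild-type mice, 5 to 10 weeks old at the start, in 6 groups of 5 mice with 1 library per mouse, to compare the colitis response of females and males. The vehicle groups of each sex received a saline injection and were killed at 9 weeks. The AOM/DSS groups received 1 injection of the carcinogen azoxymethane (AOM, 10 mg/kg) and 3 cycles of 2.5% dextran sulfate sodium (DSS), an intestinal irritant, in drinking water, and were killed at 9 or 15 weeks. No vehicle group of 15 weeks was analysed here, so at 15 weeks the effect of treatment and that of elapsed time cannot be told apart. Both AOM/DSS time points are compared with the same vehicle libraries. The tissue was scraped from the colon and holds the epithelium, set apart from the lamina propria.

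Intraepithelial lymphocytes are T cells that live between the epithelial cells of the gut, and many of them carry the CD8 alpha chain as a homodimer, with an alpha-beta or a gamma-delta T cell receptor. They are held in place by the integrin whose alpha chain is *Itgae* (CD103), which binds E-cadherin on epithelial cells. Cytotoxic T cells and natural killer (NK) cells kill through granules that hold perforin (*Prf1*), which makes pores in membranes, and granzymes such as *Gzma* and *Gzmb*, serine proteases that enter the target cell, with *Nkg7* as a granule membrane protein. Their activity is set in part by the lectin-like receptors CD94 (*Klrd1*), which pairs with an NKG2 chain to read the MHC molecule Qa-1, and NKG2D (*Klrk1*), which reads stress ligands, and by *Cd160*, which binds the receptor HVEM.

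In the annotation of the files (GRCm38), *Klrd1* (ENSMUSG00000030165) lies on chromosome 6 from 129591782 to 129598775 on the plus strand and *Klrk1* (ENSMUSG00000030149) 11547 bases further on the minus strand, from 129610323 to 129623864. *Cd8a* (ENSMUSG00000053977) is on the same chromosome from 71373427 to 71379171. *Gzma* (ENSMUSG00000023132, chromosome 13 from 113093825 to 113100979), *Gzmb* (ENSMUSG00000015437, chromosome 14 from 56258856 to 56262260), *Prf1* (ENSMUSG00000037202, chromosome 10 from 61297836 to 61304263) and *Nkg7* (ENSMUSG00000004612, chromosome 7 from 43437073 to 43438246) overlap no other gene of the table. *Itgae* (ENSMUSG00000005947, chromosome 11 from 73090583 to 73147446) holds the kinase gene *Gsg2* on its opposite strand, and in GENCODE vM21 the pair shares 0 exonic bases. *Cd160* (ENSMUSG00000038304, chromosome 3 from 96798763 to 96829351) shares 68 exonic bases with *Pdzk1* on the opposite strand, a gene with 0 to 24 counts in any library. Whether the authors' counting used the strand is not given in the sources used here, so reads over these 68 bases may belong to either gene.

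RefSeq (GRCm38.p6) gave a promoter window for 7 of the 9 genes, and none for *Klrd1* and *Itgae*. The 250 bases before the start site are shown for *Gzma*, *Gzmb* and *Cd8a*, the genes with some of the closest shared movement across libraries, each 5′ to 3′ in the direction of the gene, with matches to the core TGTGGT of RUNX factors, or its reverse complement ACCACA, in capitals. The *Gzma* window is chr13:113100982-113101231 on the minus strand, that of *Gzmb* chr14:56262335-56262584 on the minus strand and that of *Cd8a* chr6:71373177-71373426 on the plus strand.
Gzma: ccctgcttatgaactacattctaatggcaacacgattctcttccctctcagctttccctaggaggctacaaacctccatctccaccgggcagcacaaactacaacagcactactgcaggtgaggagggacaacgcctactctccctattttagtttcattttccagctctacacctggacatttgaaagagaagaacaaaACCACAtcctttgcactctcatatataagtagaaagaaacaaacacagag
Gzmb: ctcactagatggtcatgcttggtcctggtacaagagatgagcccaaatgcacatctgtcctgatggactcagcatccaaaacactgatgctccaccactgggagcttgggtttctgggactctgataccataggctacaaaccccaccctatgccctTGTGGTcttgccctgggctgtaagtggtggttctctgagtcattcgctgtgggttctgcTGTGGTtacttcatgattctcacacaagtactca
Cd8a: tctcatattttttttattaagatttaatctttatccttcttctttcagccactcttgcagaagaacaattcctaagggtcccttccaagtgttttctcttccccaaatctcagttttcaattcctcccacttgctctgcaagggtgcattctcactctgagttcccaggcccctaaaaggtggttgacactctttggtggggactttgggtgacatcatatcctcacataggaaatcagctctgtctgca

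The *Gzma* window held 1 RUNX core, starting 50 bases before the start site, and the *Gzmb* window held 2, at 93 and 34 bases before it, while the *Cd8a* window held none. Searched on both strands, the RUNX core stood in the first windows of 6 of the 7 genes, all but *Cd8a*, against 14.0% of the 32851 windows of all genes. The T-box core GGTGTG stood in 2 of the 7, *Nkg7* and *Cd160*, against 16.3% of all windows, and the ETS core AGGAAG in 3 of the 7, *Prf1*, *Nkg7* and *Cd160*, against 29.5%. In *Cd160* the T-box match and the RUNX match overlapped. A match is a description of the letters and was not tested as a binding site.

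Counts on genes ran from 9265804 to 30806392 per library. Levels are given as CPM (counts per 1e6 counts of a library, after TMM scaling of its total), and the 9 genes had 0 to 203 counts in a library. The scrape held mostly epithelium, with 12060 to 23300 summed CPM for 10 epithelium markers against 3.09 to 37.7 for the 9 genes together. The NK receptor *Ncr1* had 0 to 9 counts in any library, and it did not pass the filter on low counts. Male vehicle replicate 1 stood apart with 5213 summed CPM for 12 mesenchyme and muscle markers, against 15.0 to 510.4 in the other libraries, and female vehicle replicate 5 had the lowest count. The mitochondrial gene *mt-Nd4l* took 39.2% to 58.1% of all TPM (transcripts per 1e6 transcripts, a level per transcript length), so TPM values are relative to a total that it sets in large part. In these bulk samples, fewer cells of a type and less RNA per cell cannot be told apart.

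Per length, *Gzma* and *Klrd1* had the highest levels of the 9 genes and *Prf1* the lowest in females at 9 weeks of AOM/DSS. The mean TPM there was 2.92 ± 1.47 for *Gzma*, 2.31 ± 0.803 for *Klrd1*, 1.25 ± 0.763 for *Gzmb* and 1.08 ± 0.358 for *Nkg7* (SD, n = 5 throughout). The mean TPM in the same libraries was 0.766 ± 0.365 for *Cd8a*, 0.732 ± 0.337 for *Cd160*, 0.652 ± 0.166 for *Itgae*, 0.336 ± 0.181 for *Klrk1* and 0.0505 ± 0.0750 for *Prf1*. The ranges of mean ± SD of neighbours in this order overlapped, except those of *Klrk1* and *Prf1*. In vehicle-treated males the mean TPM of each of the 9 genes was below these values, from 0.466 ± 0.171 for *Klrd1* and 0.390 ± 0.106 for *Itgae* down to 0.0110 ± 0.0216 for *Prf1*.

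Among the granule genes, *Gzma* was near the detection limit in several vehicle libraries and present in every AOM/DSS library. With vehicle it stood at 0.0704, 3.57, 0.666, 0.221 and 0.853 CPM in female replicates 1 to 5 and at 0.0325, 0.813, 1.61, 0.0691 and 0.112 CPM in the males. At 9 weeks *Gzma* stood at 2.41, 2.93, 2.46, 6.12 and 8.12 CPM in females and at 1.88, 4.10, 1.67, 0.860 and 1.35 CPM in males. At 15 weeks *Gzma* stood at 5.32, 2.99, 5.82, 7.17 and 1.44 CPM in females and at 0.712, 0.694, 0.684, 1.10 and 0.925 CPM in males. The 5 males at 15 weeks all lay below the 5 females, and their spread (SD 0.185 CPM) was the narrowest of the 6 groups for this gene. Of the 10 vehicle libraries, female replicates 2 and 5 and male replicates 2 and 3 lay within the range of the AOM/DSS libraries.

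*Gzmb* had the same order of group means. Under vehicle it stood at 0.0352, 3.16, 1.22, 0.0884 and 0.320 CPM in females and at 0.0651, 0.385, 1.42, 0.276 and 0.149 CPM in males. At 9 weeks *Gzmb* stood at 1.18, 2.50, 1.09, 4.38 and 6.18 CPM in females and at 1.98, 2.75, 2.64, 1.14 and 0.660 CPM in males. At 15 weeks *Gzmb* stood at 4.70, 1.42, 4.17, 4.39 and 1.29 CPM in females and at 0.297, 0.408, 0.282, 0.827 and 1.75 CPM in males. Male replicate 5 at 15 weeks was the only male of that group above the lowest female, and female vehicle replicate 2 was again the highest vehicle library.

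*Nkg7* had the same order of group means as the granzymes. With vehicle it stood at 0.317, 1.70, 0.962, 0.530 and 0.746 CPM in females and at 0.195, 0.771, 0.973, 0.622 and 0.261 CPM in males. At 9 weeks *Nkg7* stood at 0.846, 1.51, 1.44, 1.70 and 2.58 CPM in females and at 1.77, 1.27, 1.67, 0.768 and 0.660 CPM in males. At 15 weeks *Nkg7* stood at 1.77, 2.68, 1.40, 3.07 and 1.71 CPM in females and at 1.13, 0.449, 0.282, 0.896 and 0.822 CPM in males. As for *Gzma*, the sexes did not overlap at 15 weeks, while they overlapped with vehicle and at 9 weeks. *Prf1* had 0 to 13 counts per library, at most 3 counts in 20 of the 30 libraries, and it was the gene of the 9 that did not pass the filter on low counts. Its highest values, 0.560 CPM in female and 0.568 CPM in male replicate 2 at 9 weeks, rest on 13 counts each, and no difference of *Prf1* was detectable at this depth.

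Of the receptors, *Klrd1* was the gene with the largest fitted difference between the sexes at 15 weeks. In vehicle-treated mice it stood at 0.247, 2.96, 2.44, 1.15 and 3.09 CPM in females and at 0.325, 0.685, 1.68, 0.794 and 1.05 CPM in males. At 9 weeks *Klrd1* stood at 3.38, 3.66, 2.74, 5.02 and 4.09 CPM in females and at 1.88, 2.93, 1.56, 1.17 and 1.01 CPM in males. At 15 weeks *Klrd1* stood at 4.84, 3.73, 4.29, 5.17 and 1.48 CPM in females and at 0.237, 0.734, 0.644, 0.138 and 1.47 CPM in males. The groups did not overlap at 15 weeks, but the lowest female and the highest male, replicate 5 of each, were nearly equal. At 9 weeks male replicate 2 alone lay above the lowest female.

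*Klrk1* was low, from 0.237 to 1.33 CPM over all 30 libraries, with 4 to 31 counts, and its groups overlapped in every comparison. Its log2 fold change (± SE) of 9 weeks over vehicle was 1.01 ± 0.41 in females and 0.26 ± 0.40 in males. Its highest group mean, 0.887 ± 0.430 CPM in females at 9 weeks, and its lowest, 0.439 ± 0.0768 CPM in vehicle-treated females, differed by about the SD of the first. The chains that CD94 pairs with were scarce, with 0 to 14 counts for the inhibitory *Klrc1* (NKG2A) and 0 to 16 counts for the activating *Klrc2* (NKG2C) in any library. *Hcst*, the DAP10 adaptor through which NKG2D signals, ran from 0.721 to 2.21 CPM, and its group means lay between 1.23 and 1.66 CPM.

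*Cd8a* was spread widely. In the vehicle groups it stood at 0.317, 4.22, 2.89, 1.28 and 2.35 CPM in females and at 0.0325, 1.28, 2.25, 0.691 and 0.187 CPM in males. At 9 weeks *Cd8a* stood at 3.30, 2.50, 2.14, 5.78 and 6.67 CPM in females and at 2.52, 4.28, 3.30, 2.06 and 1.04 CPM in males. At 15 weeks *Cd8a* stood at 7.43, 3.41, 4.17, 7.24 and 1.44 CPM in females and at 1.36, 1.31, 0.644, 0.896 and 1.92 CPM in males. Female replicate 5 was the 1 female of 15 weeks within the male range. The CD8 beta chain *Cd8b1*, found on conventional CD8 T cells, was far below *Cd8a*, and it took 4.35% of the counts of both chains in vehicle-treated females and 5.69% in vehicle-treated males. This share was 11.1% in females and 18.1% in males at 9 weeks, and 5.68% in females and 13.6% in males at 15 weeks, from 7 to 80 *Cd8b1* counts per group. Single libraries set several of these shares. Without male replicate 5 at 15 weeks, which held 15 of the 22 *Cd8b1* counts of its group, the share was 7.69%. It was 2.51% in vehicle-treated females without replicate 1, and in vehicle-treated males 3.03% without replicate 4 and 11.1% without replicate 3.

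*Cd160* was the gene of the 9 with the lowest vehicle-treated males relative to females. Vehicle libraries stood at 0.282, 2.88, 1.67, 0.398 and 1.81 CPM in females and at 0.0325, 0.514, 0.749, 0.449 and 0.261 CPM in males. At 9 weeks *Cd160* stood at 1.31, 1.68, 0.843, 2.13 and 3.44 CPM in females and at 1.06, 1.18, 0.938, 0.952 and 0.694 CPM in males. At 15 weeks *Cd160* stood at 3.35, 2.42, 2.21, 3.42 and 1.14 CPM in females and at 0.593, 0.326, 0.644, 0.482 and 1.40 CPM in males. In each of the 3 conditions the groups overlapped by a few libraries. The *Cd160* ligand *Tnfrsf14* (HVEM) had group means between 9.92 and 16.2 CPM.

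*Itgae* ran from 0.979 to 5.92 CPM over all libraries, and unlike the granule genes it was at 1.81 CPM or more in every vehicle library. With saline it stood at 3.10, 2.64, 1.89, 1.81 and 2.88 CPM in females and at 2.02, 2.18, 3.82, 1.93 and 3.14 CPM in males. At 9 weeks *Itgae* stood at 4.95, 4.43, 3.06, 3.91 and 4.30 CPM in females and at 4.0, 4.72, 3.34, 2.86 and 2.36 CPM in males. At 15 weeks *Itgae* stood at 3.88, 3.89, 3.01, 5.92 and 1.86 CPM in females and at 1.13, 0.979, 1.97, 1.65 and 1.82 CPM in males. The males at 15 weeks all lay below the males at 9 weeks for *Itgae* alone of the 9 genes, as they did for 1.99% of the tested genes. *Gsg2*, within its locus, had group means between 7.21 and 9.04 CPM, and the mean was 7.92 ± 2.44 CPM in females and 8.98 ± 1.59 CPM in males at 15 weeks. The partner chain *Itgb7* had 3.69 ± 2.54 CPM in females and 2.97 ± 0.838 CPM in males at 15 weeks, and the CD103 ligand *Cdh1* (E-cadherin) had group means between 1200 and 1514 CPM.

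**Figure D1:**
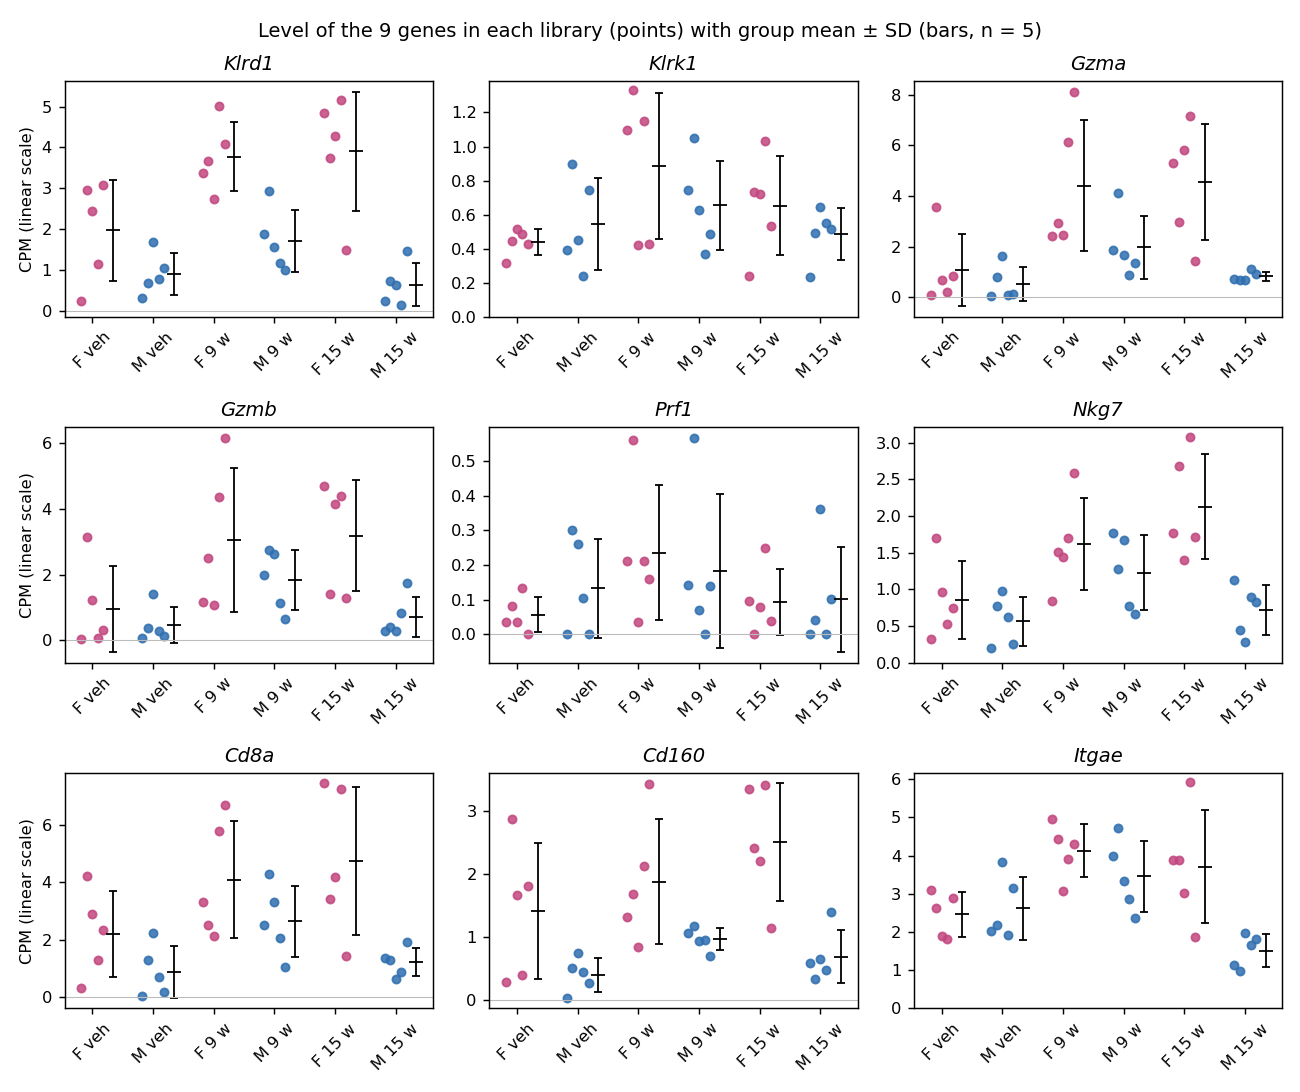
CPM (linear axis, a separate scale per gene) of the 9 genes in each of the 30 libraries, as points in replicate order from left to right for females (pink) and males (blue) in the vehicle (veh), 9-week and 15-week groups, with the group mean and SD (n = 5) as a black bar beside them. At 15 weeks the males lay below all females for *Klrd1*, *Gzma* and *Nkg7*, while the sexes overlapped for *Klrk1* and *Prf1* in each condition.

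With both sexes together, all 8 tested genes had higher fitted levels at 9 weeks of AOM/DSS than with vehicle, as had 46% of all tested genes. The log2 fold change (± SE) was largest for the granzymes, 1.96 ± 0.55 for *Gzma* and 1.81 ± 0.58 for *Gzmb*, followed by 1.23 ± 0.45 for *Cd8a*, 1.01 ± 0.32 for *Nkg7* and 0.93 ± 0.37 for *Klrd1*. It was 0.84 ± 0.39 for *Cd160*, 0.63 ± 0.29 for *Klrk1* and 0.57 ± 0.19 for *Itgae*. In the fit over all genes, 3 of the 8 (*Gzma*, *Gzmb* and *Nkg7*) passed the thresholds of the study, an adjusted p under 0.05, a log2 change beyond 0.4 and a mean of at least 1 FPKM in 1 of the groups, where 5.51% of the 16261 tested genes did so upward. Since the genes were chosen on this contrast, nothing is read from that count. The count was 1 without female vehicle replicate 4, male vehicle replicate 1 or 5, female 9-week replicate 5 or male 9-week replicate 3, each left out on its own.

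At 15 weeks the log2 fold changes over vehicle were smaller, 1.36 ± 0.55 for *Gzma*, 1.17 ± 0.58 for *Gzmb*, 0.82 ± 0.33 for *Nkg7*, 0.82 ± 0.40 for *Cd160* and 0.79 ± 0.46 for *Cd8a*. They were near 0 for *Klrd1* (0.28 ± 0.37), *Klrk1* (0.21 ± 0.29) and *Itgae* (-0.10 ± 0.19). Of the 8, 7 were positive, as were 46.7% of all genes. None of the 8 passed the thresholds in edgeR's test, where 3.46% of all genes did so upward, while 3 of 8 were higher at an unadjusted p under 0.05 (15.3% of all genes) and 1, *Gzma*, passed by DESeq2. From 9 to 15 weeks all 8 fitted changes were negative, from -0.02 ± 0.37 for *Cd160* to -0.67 ± 0.19 for *Itgae*, as were 53.3% over all genes, and none passed the thresholds in edgeR's test or by DESeq2, where 1.91% of all genes did so downward. Without the FPKM minimum *Itgae* passed in edgeR's test and by DESeq2, where 3.83% of all genes did so downward. It was also the 1 of 8 at an unadjusted p under 0.05, where 14.1% of all genes were lower. The genes were chosen on these contrasts too, so nothing is read from these counts either. The mean over both sexes covers a split at 15 weeks, where *Klrd1*, for example, ran from 0.138 to 5.17 CPM over the 10 libraries.

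The sexes were compared within each condition to ask where females and males differ. In vehicle-treated mice 6 of the 8 genes had lower fitted levels in males, as had 48% of all genes, and none passed the thresholds in edgeR's quasi-likelihood test (2 of 8 at an unadjusted p under 0.05, *Cd160* and *Klrd1*, where 7.93% of all genes were lower, and 0 by DESeq2, which called *Cd160* without the FPKM minimum), where 0.0369% of all genes did so downward. *Cd160* came nearest, with a log2 fold change of -1.80 ± 0.58 and an adjusted p of 0.0961 (edgeR, Benjamini-Hochberg), and was lower than the female median of 1.67 CPM in 5 of 5 males. Mesenchyme and muscle markers moved with sex in the same libraries, with 23.8 to 204.8 summed CPM in females and 114.9 to 5213 in males, and none of the 12 genes was at 0. With the mean level of these markers as a covariate the log2 fold change of *Cd160* was -0.57. Those of *Gzma* and *Cd8a* went from -1.05 and -1.32 to 0.35 and 0.06. Male vehicle replicate 1 alone held the 5213 CPM, and the markers and sex cannot be told apart in these libraries. Whether the markers account for the sex difference was not tested. Female vehicle replicate 1 was low in all of *Gzma*, *Gzmb*, *Klrd1*, *Cd8a* and *Cd160* and held the 204.8 CPM. Without it *Cd160* had an adjusted p of 0.0188 (edgeR). Over all genes and both directions, 1047 genes passed without this library, against 29 with all libraries.

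At 9 weeks of AOM/DSS all 8 genes had lower fitted levels in males, as had 51.1% of all genes, from -0.26 ± 0.27 for *Itgae* to -1.16 ± 0.74 for *Gzma* on the log2 scale, and none passed the thresholds in edgeR's test or by DESeq2 (1 of 8 at an unadjusted p under 0.05, *Klrd1* at -1.15 ± 0.52, where 2.3% of all genes were lower), where 0.00615% of all genes did so downward. The confidence interval of the difference, at 95%, still reached -2.20 for *Klrd1* and -2.67 for *Gzma*.

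At 15 weeks all 8 genes again had lower fitted levels in males, as had 49.8% of all genes. *Klrd1* was 5.79-fold lower in males, a log2 fold change of -2.53 ± 0.55 with a 95% confidence interval from -3.66 to -1.41, and passed the thresholds (edgeR's quasi-likelihood test, Benjamini-Hochberg adjusted p = 0.0427). It was the 1 gene of the 8 to do so, where 0.0615% of all genes did so downward. *Itgae* had a log2 fold change of -1.29 ± 0.28 at the same adjusted p of 0.0427 (edgeR), but its mean was under 1 FPKM in both sexes. Without the FPKM minimum 2 of the 8 genes were thus lower in males, where 0.0984% of all genes were.

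None of the other 6 genes passed. The log2 fold change was -2.47 ± 0.78 for *Gzma* (edgeR adjusted p = 0.151), -2.14 ± 0.82 for *Gzmb* (adjusted p = 0.262) and -1.58 ± 0.46 for *Nkg7* (adjusted p = 0.118). It was -1.94 ± 0.65 for *Cd8a* (edgeR adjusted p = 0.182), -1.83 ± 0.56 for *Cd160* (adjusted p = 0.132) and -0.42 ± 0.41 for *Klrk1* (adjusted p = 0.769), the interval of the last running from -1.26 to 0.42. At an unadjusted p under 0.05, 7 of the 8 genes were lower in males, where 6.99% of all genes were. The libraries of the sexes did not overlap for 3 of the 9 genes, *Klrd1*, *Gzma* and *Nkg7*, where all males were lower for 1.55% of the tested genes. By DESeq2, 4 genes passed the thresholds, *Klrd1* (adjusted p = 0.000736), *Nkg7* (adjusted p = 0.0359), *Cd160* (adjusted p = 0.0422) and *Gzma* (adjusted p = 0.0437). The shares of all genes above are those of edgeR and do not apply to this count. Over all genes and both directions, 30 passed in edgeR's test and 10 to 213 under the other settings, DESeq2 among them.

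The *Klrd1* call at 15 weeks was near its threshold. Its adjusted p in edgeR was over 0.05 without any 1 of female replicates 1 to 4 (0.114, 0.0744, 0.09998 and 0.0909) or of male replicates 1 to 4 (0.0715, 0.0674, 0.110 and 0.0876), while the log2 fold change stayed between -3.07 and -2.30 over the 10 refits. The adjusted p was 0.0200 without male replicate 5 and 0.0229 without female replicate 5. Over all genes and both directions, 12 to 83 genes passed in the 10 refits, the most without female replicate 5. The adjusted p of *Klrd1* was also over 0.05 with no filter on low counts (0.0526), with the compared libraries only (0.0802, where *Gzma* had 0.0342) and with limma on log2(TPM + 0.1) (0.1998). Mesenchyme and muscle markers ran from 20.2 to 86.9 summed CPM in females and from 15.0 to 193.7 in males at 15 weeks, and with them as a covariate *Klrd1* kept a log2 fold change of -2.33 and an adjusted p of 0.0430. *Itgae* had an adjusted p under 0.05 in 1 of its 10 such refits, 0.0117 without female replicate 5, and 0.0637 to 0.123 in the other 9. Epithelium markers ran from 14400 to 19620 summed CPM in females and from 15390 to 23300 in males, and library totals ran from 22911414 to 29293138 counts in females and from 14619526 to 29776556 in males.

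**Figure D2:**
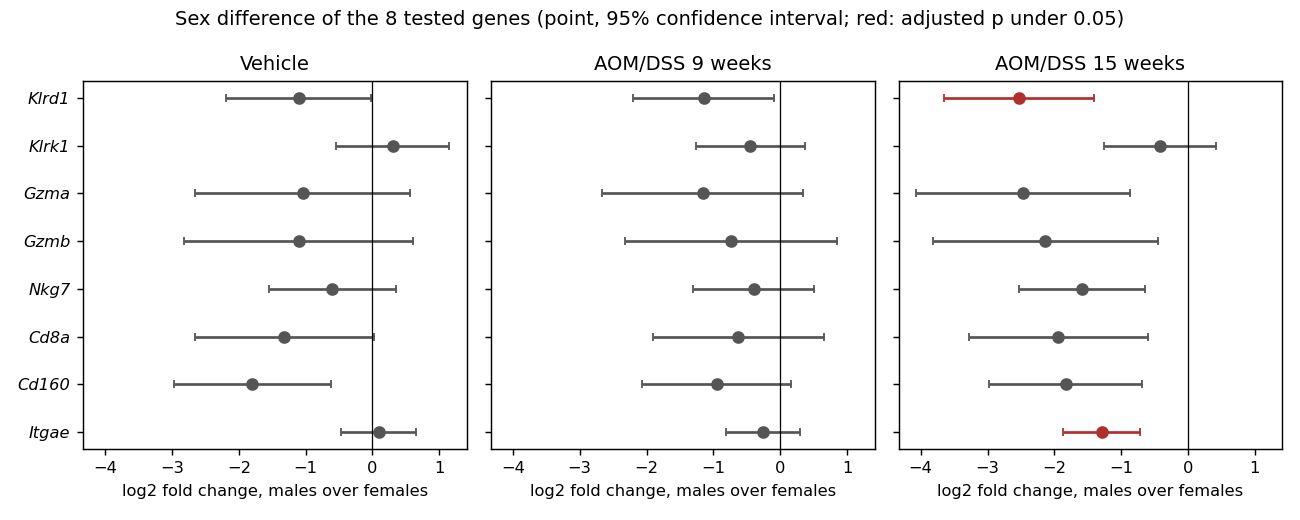
Log2 fold change of males over females for the 8 tested genes (rows) with vehicle, at 9 weeks and at 15 weeks of AOM/DSS (panels), from edgeR on all 30 libraries. Points are estimates, lines 95% confidence intervals, and red marks an adjusted p under 0.05, which *Klrd1* and *Itgae* had at 15 weeks.

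Whether the change from vehicle to 15 weeks differed between the sexes was tested as an interaction. Within females the log2 fold change of 15 weeks over vehicle was 0.998 ± 0.52 for *Klrd1*, 2.07 ± 0.77 for *Gzma* and 0.60 ± 0.28 for *Itgae*. Within males it was -0.43 ± 0.54 for *Klrd1*, 0.65 ± 0.79 for *Gzma* and -0.79 ± 0.28 for *Itgae*. The difference between the sexes passed for no gene of the 8 in edgeR's test or by DESeq2, where 0% of all genes passed downward. The largest interaction was that of *Klrd1*, -1.43 ± 0.75 on the log2 scale (edgeR adjusted p = 0.678), and the one with the smallest error relative to its size was that of *Itgae*, -1.38 ± 0.39, the 1 gene of the 8 with an unadjusted p under 0.05 (edgeR adjusted p = 0.429), where 5.1% of all genes were lower. For *Cd160* it was -0.04 ± 0.95, an SE that is imprecise this near to 0, with males lower by similar amounts under both conditions. The sex difference at 15 weeks is therefore not shown to be larger than that with vehicle for any of the 8 genes.

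Across the 30 libraries, after each library's log2 CPM was centred on its group mean, *Klrd1*, *Gzma*, *Gzmb*, *Nkg7*, *Cd8a* and *Cd160* moved together, with a Pearson correlation of 0.402 to 0.865 over their 15 pairs. It was 0.865 between *Cd8a* and *Cd160*, 0.854 between *Gzma* and *Gzmb* and 0.848 between *Gzma* and *Cd8a*. Each gene was also compared with the mean of the other 8, and the correlation was 0.864 for *Gzma*, 0.848 for *Cd160*, 0.843 for *Cd8a*, 0.821 for *Gzmb*, 0.733 for *Klrd1* and 0.617 for *Nkg7*. *Prf1* (0.485), *Itgae* (0.47) and *Klrk1* (0.291) followed the rest less closely. The lowest of the 36 pairs was *Klrk1* with *Nkg7*, at 0.0234. These are descriptions over libraries that share depth and tissue composition, and counts as low as those of *Prf1* and *Klrk1* leave much counting error in them.

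**Figure D3:**
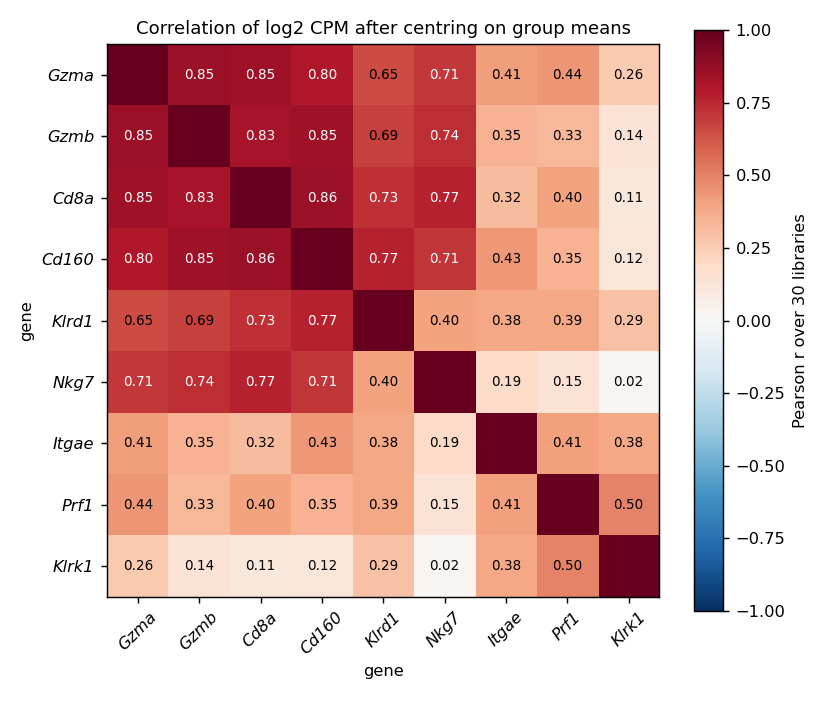
Pearson correlation, over 30 libraries, of log2 CPM centred on group means for each pair of the 9 genes (colour from -1 to 1, with the value in each cell). The 4 genes *Gzma*, *Gzmb*, *Cd8a* and *Cd160* form the block of highest values, from 0.804 to 0.865, and *Klrk1*, *Prf1* and *Itgae* the lowest.

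Among the other tested genes, the 10 whose centred levels were most like the mean of the 9 were *Ctsw* (r = 0.869), *Klra7* (0.868), *Saa3* (0.834), *Cd7* (0.813), *Cd300lf* (0.808), *Rdh1* (0.797), *Cd3g* (0.783), *Mep1b* (0.778), *Tcrg-C2* (0.776) and *Lgals3bp* (0.773), against a median of -0.0203 over all tested genes. *Ctsw* is a protease of cytotoxic lymphocytes, *Klra7* a receptor of the Ly49 family, *Cd7* a surface protein of T and NK cells, *Cd3g* a chain of the CD3 complex and *Tcrg-C2* a constant region of the gamma T cell receptor chain. The list also held genes that are not lymphocyte genes, among them *Mep1b*, a brush border protease, *Rdh1*, a retinol dehydrogenase, and *Saa3*, a serum amyloid protein. By Spearman's rho 6 of the 10 were again among the first 10.

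The T cell receptor and CD3 genes were measured beside the 9 genes. At 9 weeks of AOM/DSS, 9 of the 11 tested rose over vehicle by adjusted p and fold without the FPKM minimum, where 8.05% of all genes did, among them the signalling chain *Cd247* (log2 fold change 1.84), the adaptor *Lat* (1.63) and the receptor constant regions *Trac* (1.57) and *Trbc2* (1.45). At 15 weeks 7 of the 11 rose, where 4.29% of all genes did, with *Zap70* (1.27) and *Trbc1* (1.07) largest, and 4 did so without male vehicle replicate 5 or without male replicate 5 at 15 weeks. Between the sexes at 15 weeks all 11 had lower fitted levels in males, with a median log2 fold change of -1.06 against 0.00105 over all genes, and none passed in edgeR's test (9 of 11 at an unadjusted p under 0.05), while DESeq2 called 3 without the FPKM minimum, *Cd3e*, *Trac* and *Trdc*. The delta chain *Trdc* had 2.13 ± 0.669 CPM in females and 0.493 ± 0.361 CPM in males at 15 weeks. The summed *Gzma* and *Gzmb* counts per count of the CD3 genes had a median of 0.229 in females and 0.241 in males with vehicle, 0.846 and 0.637 at 9 weeks, and 1.08 and 0.310 at 15 weeks. At 15 weeks this ratio ran from 0.424 to 1.41 in females and from 0.229 to 0.651 in males, so the sexes overlapped.

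Of 14 further genes tested from a list for intraepithelial lymphocytes, 10 rose at 9 weeks. The largest changes were those of the chemokine *Ccl5* (log2 fold change 2.93), *Cd8b1* (2.81), the activation marker *Cd69* (1.56) and the receptor *Cd244* (1.43). *Cd8b1* is the chain found on conventional CD8 T cells, so the list is not limited to intraepithelial cells. At 15 weeks none rose in edgeR's test (0 to 2 with 1 library left out, 5 of 14 at an unadjusted p under 0.05 in either direction, and 2 rose by DESeq2). The integrin chain *Itga1* fell (-0.60), where 7.02% of all genes fell. That fall was lost without female vehicle replicate 4 or 5, male vehicle replicate 1 or 5, female replicate 1 or 2 at 15 weeks or male replicate 5 at 15 weeks. Of these genes 6 fell from 9 to 15 weeks, where 3.83% of all genes fell by the same thresholds, with *Cd101* (-2.08), *Ccl5* (-1.91), *Cd69* (-1.47) and the gut homing receptor *Ccr9* (-1.17) largest. The count was 0 without female 9-week replicate 4, and 3 without male 9-week replicate 2 or female 15-week replicate 1. Of 10 further cytotoxic effectors tested, 5 rose at 9 weeks, among them the granule proteoglycan *Srgn* (2.69), the serine protease inhibitor *Serpinb6b* (1.5), the death ligand *Tnfsf10* (1.22) and *Ifng*, which went from a mean of 0.0141 to 1.19 CPM. At 15 weeks *Ctsw* (0.94) was the 1 that rose, and it no longer passed without female vehicle replicate 1, 4 or 5, male vehicle replicate 1 or 5, female 15-week replicate 1, 2 or 4, or male 15-week replicate 1 or 5. Of 9 tested lectin receptors and adaptors, *Tyrobp* (1.69) and *Klrb1b* (1.07) rose at 9 weeks, and 4 genes did so without female vehicle replicate 2 or male vehicle replicate 3. None of the 9 rose at 15 weeks (1 of 9 at an unadjusted p under 0.05, 2 by DESeq2). That count was 0 to 2 with 1 library left out, and at least 1 in most of these refits. Between the sexes at 15 weeks no gene of these 3 lists passed in edgeR's test (7 of 14, 2 of 10 and 3 of 9 at an unadjusted p under 0.05), while DESeq2 called *Cd7*, *Cd96* and *Fasl*, all lower in males.

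Of 13 tested transcription factors and IL-15 pathway genes, 6 rose at 9 weeks, with *Eomes* (2.22), *Prdm1* (1.78), *Runx3* (1.73) and *Tbx21* (1.34) largest, and *Il15*, the cytokine that sustains intraepithelial lymphocytes, was the 1 that fell (-0.77, named after its value was seen), where 3.97% of all genes fell. At 15 weeks *Eomes* (3.10), *Prdm1* (1.12) and *Runx3* (0.83) rose. Among 12 tested epithelial ligands, *Btnl2* (1.29) and *H2-T23*, which encodes the CD94 ligand Qa-1 (0.53), rose at 9 weeks. None of the 12 rose at 15 weeks in edgeR's test (0 to 1 with 1 library left out, 4 of 12 at an unadjusted p under 0.05, and *Btnl2* by DESeq2). *H2-T23* had 209 ± 37.7 CPM in females and 159.3 ± 22.2 CPM in males with vehicle, and 257 ± 38.4 and 207 ± 42.9 CPM at 15 weeks. *H2-T3*, the thymus leukaemia antigen that binds the CD8 alpha homodimer, was lower in males in each condition, 80.5 ± 53.3 against 25.1 ± 27.3 CPM with vehicle and 98.4 ± 41.8 against 41.0 ± 27.5 CPM at 15 weeks. Its sex difference did not pass in edgeR's test in either (adjusted p = 0.243 and 0.547).

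Markers of other lymphoid and myeloid cells moved with the same treatments. At 9 weeks 5 of 5 tested helper and regulatory T markers rose, with *Ctla4* (3.40), *Foxp3* (2.99) and *Il2ra* (2.82) largest, as did 4 of 5 neutrophil, 3 of 5 mast cell, 3 of 5 plasma cell, 3 of 5 NK and innate lymphoid, 2 of 6 macrophage markers (0 to 4 with 1 library left out), 1 of 9 B cell markers (1 to 4), 1 of 10 epithelium markers and 0 of 12 mesenchyme and muscle markers (0 of 12 at an unadjusted p under 0.05 and 0 by DESeq2). At 15 weeks 2 helper and regulatory T markers rose (1 to 2 with 1 library left out), as did 2 neutrophil (1 to 3), 3 mast cell, 2 NK and innate lymphoid and 2 epithelium markers. In the NK and innate lymphoid list 1 marker fell at 9 weeks, where 3.97% of all genes fell, and 1 at 15 weeks, where 7.02% did. The mean summed CPM of that list was 77.9 in females and 94.8 in males with vehicle. It was 56.6 and 68.3 at 9 weeks, and 59.1 and 52.4 at 15 weeks. With both sexes together 8 of 12 mesenchyme and muscle markers fell at 15 weeks, with a median log2 fold change of -2.27, while DESeq2 called 3 of the 7 it gave an adjusted p. The edgeR count was 1, and the median -0.94, without male vehicle replicate 1, and it was 1 without female vehicle replicate 1 and 4 without female 15-week replicate 1. Within males 10 of 12 fell, and within females 0 of 12 in edgeR's test (0 of 12 at an unadjusted p under 0.05, 0 by DESeq2). Over all genes and both directions, with the FPKM minimum, 1451 passed within males and 16 within females. Without male vehicle replicate 1 the number within males was 615, and the count of 10 was not taken again without that library. Summed helper and regulatory T markers overlapped between the sexes at 15 weeks, with 0.958 to 4.25 CPM in females and 1.31 to 5.14 CPM in males, and their 5 tested genes had a median log2 fold change of 0.08, against -1.89 for the 8 tested cytotoxic genes. A difference between these medians was not tested. For the T cell receptor and CD3 list all males at 15 weeks lay below all females, with 11.78 to 21.54 against 23.45 to 38.75 summed CPM. The same held for the 14 further intraepithelial lymphocyte genes, with 17.57 to 26.75 against 29.98 to 43.16 summed CPM. The part of these other cells in the values of the 9 genes was not tested.

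**Figure D4:**
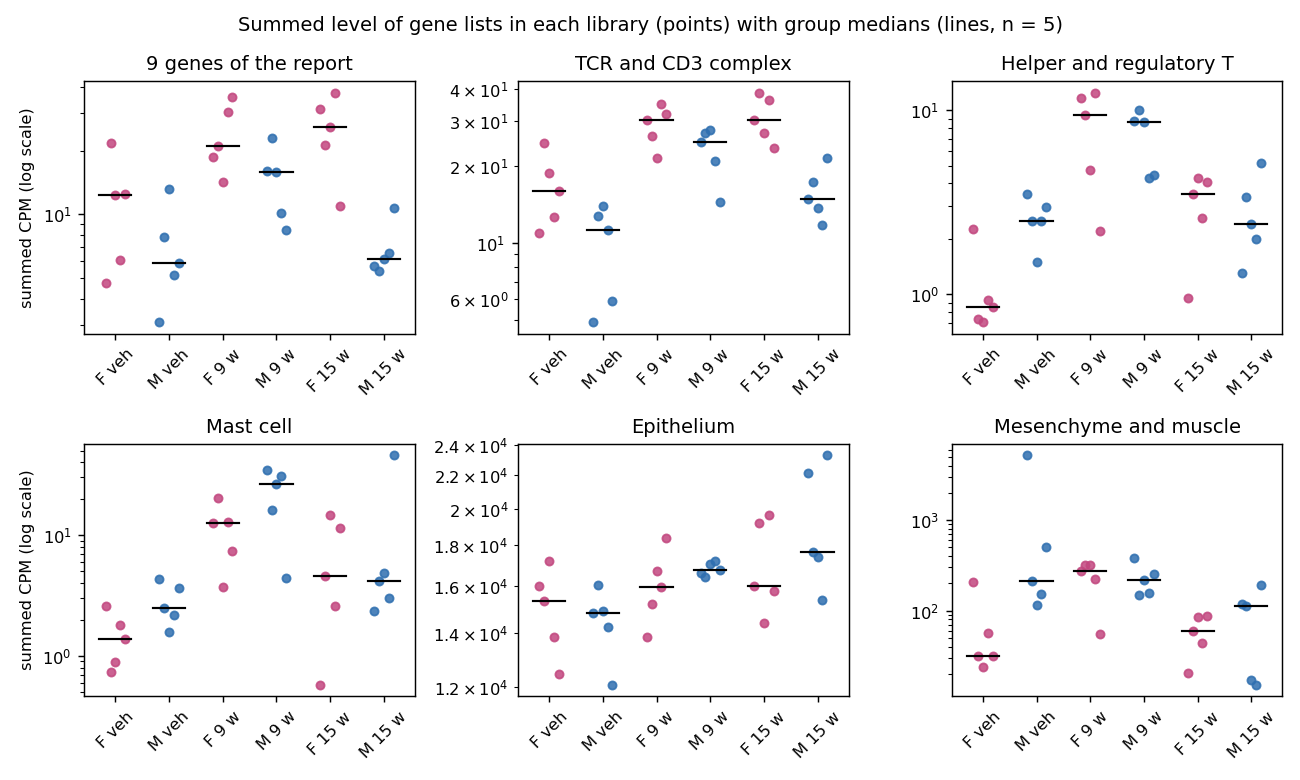
Summed CPM (log axis) of the 9 genes and of 5 marker lists in each library, as points for females (pink) and males (blue), with the group median as a line (n = 5). The 9 genes ran from 10.9 to 37.7 CPM in females and from 5.43 to 10.7 CPM in males at 15 weeks. The TCR and CD3 sums did not overlap either, with 23.45 to 38.75 CPM in females and 11.78 to 21.54 CPM in males. The helper and regulatory T, mast cell, epithelium and mesenchyme and muscle sums overlapped between the sexes.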

How the data were processed

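Poly(A)-selected stranded libraries were mapped by the authors with STAR (mouse build GRCm38), and the deposited raw counts per gene come from featureCounts, with no removal of duplicate reads described. Their annotation release is not given in the sources used here. StringTie gave the deposited FPKM and TPM, which were summed over lines with the same gene identifier. The 9 genes and the 15 other gene lists were chosen with earlier results of these data known, so no list is independent support.

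Counts were tested with edgeR 4.0.16 (R 4.3.3), with filterByExpr (16261 genes kept), TMM and a quasi-likelihood fit of 6 groups to all 30 libraries, a common biological coefficient of variation of 0.319, and Benjamini-Hochberg adjustment over all genes tested. A call needed an adjusted p under 0.05, a log2 change beyond 0.4 and a mean of at least 1 FPKM in a compared group. With both sexes together, each side was the mean of both sexes. Named genes are the 9, up to 4 called genes per list with the largest change, receptor partners and ligands, and the 10 most similar genes. Scripts were tested on simulated counts. Alternatives were DESeq2 1.42.0, limma 3.58.1 on TPM with a pseudocount of 0.1, other scaling and filters, a replicate block, the compared libraries alone, and each library left out. A mesenchyme and muscle covariate, and the fit without female vehicle replicate 5 and male vehicle replicate 1, were added after seeing the data. No 2 libraries of a group were copies. Statements on detection cover counting error only. Mice are the replicates. The p-values set a group difference against a spread between mice that was estimated over all 6 groups, with sharing across genes.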

Additional observations from a re-analysis of the deposited data

Results flagged for a closer look

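For *Klrd1* in females at 15 weeks of AOM/DSS, replicate 5 lay apart from its group, with 1.48 CPM (39 counts) against a group median of 4.29 CPM. On the log2 CPM scale, the only one on which this was examined, its gap to the nearest of the other 4 libraries was 0.735 of the range of the group. That is past Dixon's critical value at the 5% level (0.71). It was the only such library among 54 combinations of 9 genes and 6 groups, and chance alone gives about 1 in 20. The same library was the lowest female of 15 weeks for *Gzma*, *Gzmb*, *Cd8a*, *Cd160* and *Itgae*, while for *Nkg7* 1 of the others was lower. Without it the log2 fold change of males over females in *Klrd1* was -2.74 (edgeR's quasi-likelihood test, adjusted p = 0.0229). Over all genes and both directions, 83 genes passed without it, against 30 with all libraries.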

How the results depend on the processing

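Of 1327 refits of 56 values of the 8 tested genes, 1189 kept their direction and their side of the threshold, 74 lost and 31 gained an adjusted p under 0.05, and 33 turned direction. The count of the 8 genes called at 9 weeks over vehicle with both sexes, 3, was 1 without female vehicle replicate 5 and male vehicle replicate 1, and 1 to 4 with 1 library left out. At 15 weeks over vehicle the count, 0, was 1 by DESeq2 and 0 to 2 with 1 library left out, 2 without female vehicle replicate 2 or male vehicle replicate 3. From 9 to 15 weeks it went from 0 to 1 without the FPKM minimum and to 3 by limma on TPM. At 9 weeks within females it went from 0 to 1 by limma and with the mesenchyme covariate, within males from 0 to 1 by limma, and from 0 to 1 in both with 1 library left out. From 9 to 15 weeks in males it was 1 by limma. Over all genes and both directions, 378 passed from 9 to 15 weeks with both sexes, and 0 to 8336 under the other settings. Within males 0 of all genes passed from 9 to 15 weeks, and 0 to 1242 under the other settings. Between the sexes at 15 weeks the count of the 8 genes, 1, was 2 without the FPKM minimum, 0 with no filter on low counts and 0 by limma. It was 4 by DESeq2 and 0 to 1 with 1 library left out. The cause of these changes was not tested.

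Same-numbered libraries shared only a number: their deviations from the group means correlated over 0.1 in 12 of 75 pairs, and in 9 of the 75 the library correlated best with its own number in the other group. With the replicate number as a block, the count at 15 weeks over vehicle was 1, *Cd160* from 9 to 15 weeks turned to 0.0066, and *Klrd1* between the sexes at 15 weeks kept an adjusted p of 0.0475 while that of *Itgae* was 0.0864.

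Other turns of direction, on the log2 scale, were those of *Klrk1* by limma, to -0.30 at 15 weeks over vehicle and -0.034 between the sexes with vehicle. With the mesenchyme covariate the sex difference with vehicle turned to 0.35 for *Gzma*, 0.21 for *Gzmb*, 0.054 for *Nkg7* and 0.062 for *Cd8a*. With 1 library left out it ran from -2.12 to 0.31 for *Gzma*, from -2.17 to 0.095 for *Gzmb*, both positive without female vehicle replicate 2, and from -0.083 to 0.19 for *Itgae*. *Cd160* from 9 to 15 weeks ran from -0.23 to 0.17. The interaction at 15 weeks ran from -2.24 to 0.035 for *Gzmb*, -1.01 to 0.083 for *Cd8a* and -0.51 to 0.32 for *Cd160*, each highest without male vehicle replicate 3. Low counts limit the precision, and *Prf1* did not pass the filter on low counts.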
